A study of Homo sapiens with 6 samples.

Results

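The urokinase system and its ligand SRPX2 were examined as 7 genes: SRPX2, PLAU, PLAUR, PLAT, SERPINE2, SERPINB2 and ANXA2. They were chosen by name, with earlier results of these data known, and they stand among 18757 genes that could be named on the array. In all, 10 of the 53103 gene probes used belong to these genes. Each of the 7 genes had a probe with a good spot on at least 1 array, and 5 had it on all 6 arrays. RNA came from HSC3, an established cell line from a human oral squamous cell carcinoma, and was labelled with Cy5 on one-colour CodeLink arrays. Besides control there were 5 siRNA conditions, named for MIA, MIA2, TANGO, MATE2 and LEMD1, with 1 array for each. All conditions are cultures of this 1 line, and whether the control cells received a control siRNA, as in the deposited design, or no treatment, as in the methods, is not settled. The paper that reported these data covers control and LEMD1 siRNA alone, and all siRNA arrays are described here.

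In this system PLAU, urokinase, cleaves plasminogen into the broad protease plasmin. Its receptor PLAUR is held at the cell surface by a lipid anchor and keeps the reaction close to the membrane. PLAT, tissue plasminogen activator, makes the same cleavage, and ANXA2, annexin A2, forms a surface complex with S100A10 that binds both PLAT and plasminogen. The serpins SERPINE2 (protease nexin 1) and SERPINB2 (plasminogen activator inhibitor 2) block the activators. SRPX2 is a secreted sushi repeat protein known as a ligand of PLAUR. In squamous carcinoma the system is known for its part in matrix breakdown and cell movement.

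The signal of a spot is its brightness above local background, quantile normalized over the 6 arrays. A change is given as the log2 ratio of an siRNA array to the control array. With 1 array for each condition there is no replicate error and no test between conditions, and precision is limited by this number of arrays. A gene was called lower or higher where the ratio was at least 2-fold, that is 1 on the log2 scale. Where a spot was near background on 1 of the arrays, the higher of its own signal and the lowest good signal on that array (27.5 to 38.6) was used and the fold is given as a bound. As a yardstick, the robust SD of the log2 ratio over all probes of like signal is quoted. It was 0.24 to 0.32 for the MIA siRNA array, 0.35 to 0.38 for LEMD1 siRNA, 0.36 to 0.57 for MIA2 siRNA, 0.41 to 0.60 for TANGO siRNA and 0.39 to 0.56 for MATE2 siRNA, and it holds real changes as well as noise. The 5 comparisons share the control array. Good spots numbered 27545 to 30628 per array.

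The genes the siRNAs are named for were examined first. LEMD1 had a control signal of 277.9, and with LEMD1 siRNA its spot was near background, at least 10.1-fold lower. It was also near background on the MIA2 siRNA array, at least 6.57-fold lower, and was 195 on the MIA siRNA array. On the TANGO and MATE2 siRNA arrays LEMD1 was 11.5-fold and 3.64-fold higher than control, with signals of 3192 and 1011. SLC47A2, also called MATE2, was 1510 on the control array, 79.6 on the MATE2 siRNA array and 58.9 on the TANGO siRNA array, while the other 3 siRNA arrays lay between 1334 and 1703. MIA was near background on the 6 arrays. For MIA2, a probe was near background on the 6 arrays, and a good probe that now has the same symbol under another gene ID, with CTAGE5 among its older names, had a log2 ratio of 0.12 on the array labelled MIA2 siRNA. No probe was named for MIA3, also called TANGO. A fall of the named gene was thus seen on the arrays labelled LEMD1 and MATE2 siRNA and could not be examined for MIA, MIA2 and TANGO siRNA. Each array is called here by its label, and since each condition is a single array, array and condition cannot be told apart.

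The 7 squamous epithelial markers with a named probe had good spots on the control array, with a summed signal of 9653 there. The summed signal was 187 to 301 for leukocyte markers, 358 to 562 for endothelial markers and 433 to 755 for fibroblast markers. PTPRC, CDH5, TEK and DCN, defining markers of those types, were near background on each array.

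The arrays carry no genome coordinates, and the sequence upstream of each gene was taken from RefSeq (GRCh38.p14), with the 250 bases before an annotated start site. The windows of 6 of the 7 genes were used, 8 windows in all, and PLAT was left out of the search beforehand. Each was searched on both strands for AP-1 (TGANTCA), GC box (GGGCGG), PEA3 (AGGAAG), CRE (TGACGTCA), TATA box (TATAAA) and E-box (CACGTG) letters. The 4 windows that hold TGANTCA are printed 5′ to 3′ on the strand of the gene, with the match in capitals, because they belong to genes that behaved differently on the arrays.
SRPX2 (chrX:100643949-100644198, plus strand): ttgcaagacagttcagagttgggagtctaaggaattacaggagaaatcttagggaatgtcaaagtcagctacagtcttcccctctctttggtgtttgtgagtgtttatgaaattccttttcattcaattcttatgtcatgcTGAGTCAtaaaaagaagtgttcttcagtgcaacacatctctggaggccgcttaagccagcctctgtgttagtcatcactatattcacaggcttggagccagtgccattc
PLAUR (chr19:43670170-43670419, minus strand): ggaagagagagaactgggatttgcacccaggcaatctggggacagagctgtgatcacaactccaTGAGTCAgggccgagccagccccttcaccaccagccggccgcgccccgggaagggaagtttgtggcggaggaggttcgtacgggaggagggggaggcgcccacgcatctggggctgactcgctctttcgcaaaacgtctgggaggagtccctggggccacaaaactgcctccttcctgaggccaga
SERPINB2 (chr18:63887455-63887704, plus strand): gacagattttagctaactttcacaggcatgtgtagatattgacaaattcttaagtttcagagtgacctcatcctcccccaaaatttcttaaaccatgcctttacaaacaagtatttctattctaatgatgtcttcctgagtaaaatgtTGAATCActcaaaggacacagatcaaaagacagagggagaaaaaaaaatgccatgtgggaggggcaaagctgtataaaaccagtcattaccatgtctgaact
ANXA2 (chr15:60397987-60398236, minus strand): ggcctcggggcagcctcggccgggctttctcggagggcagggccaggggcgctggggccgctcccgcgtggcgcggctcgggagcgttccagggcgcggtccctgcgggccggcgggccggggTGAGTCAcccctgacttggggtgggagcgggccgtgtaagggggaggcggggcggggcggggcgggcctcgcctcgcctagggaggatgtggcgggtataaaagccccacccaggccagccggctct
The match starts at -109 in SRPX2, -186 in PLAUR, -102 in SERPINB2 and -127 in ANXA2, counted from the start site, and overlaps no other motif searched. Of all 35116 such windows in the table, 6.57% hold TGANTCA. Neither of the windows of PLAU and neither of those of SERPINE2 holds it. Of the other motifs, PLAU had 3 GC boxes in the window of the downstream start site, at -66, -51 and -40, and ANXA2 had overlapping ones from -78. SERPINE2 had GC boxes in both of its windows, at -50 in one and at -230 and -183 in the other. GC boxes occur in 42.6% of all windows. PEA3 letters were at -221 in the same PLAU window, -15 in PLAUR and -119 in SERPINB2, against 28.7% of all windows. SERPINE2 had an E-box at -87, against 6.34% of all windows. CRE letters were in none of the windows searched for these genes. SERPINB2 and ANXA2 had a TATA box at -30 and -31, against 10.7% of all windows. A match is a description of the letters alone.

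Against control, 4 of the 6 genes with a value were lower on the LEMD1 siRNA array, SRPX2, PLAUR, PLAT and SERPINE2, beside 4.58% of 14224 named genes called lower there. The paper lists SRPX2 and SERPINE2 among the genes most lowered on this array, and the genes were chosen with earlier results known. The count on this array is therefore in part fixed by that choice. The same 4 genes were lower on the MIA2 siRNA array, also of 6 with a value, beside 5.52% of all named genes. On the TANGO siRNA array 3 of 6 were lower, SRPX2, PLAU and PLAUR, beside 10.2%. On the MATE2 siRNA array 3 of 7 were lower, SRPX2, PLAU and PLAT, beside 12.6%, and SERPINB2 was higher, beside 6.63% of named genes called higher. On the MIA siRNA array none of 6 was called in either direction, beside 0.573% called lower and 0.573% called higher. None of the genes was called higher on the LEMD1, MIA2 and TANGO siRNA arrays, where 2.21%, 3.71% and 6.46% of named genes were. The median log2 ratio of the genes with good spots was -2.21 on the LEMD1 siRNA array, -2.08 on MIA2 siRNA, -0.67 on TANGO siRNA, -0.31 on MATE2 siRNA and -0.18 on MIA siRNA, beside -0.04 to -0.01 for all named genes. No 2 of the 4 genes SRPX2, PLAUR, PLAT and SERPINE2 were low on the same set of arrays, and the plots of signals and of ratios by gene show these sets.

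**Figure D1:**
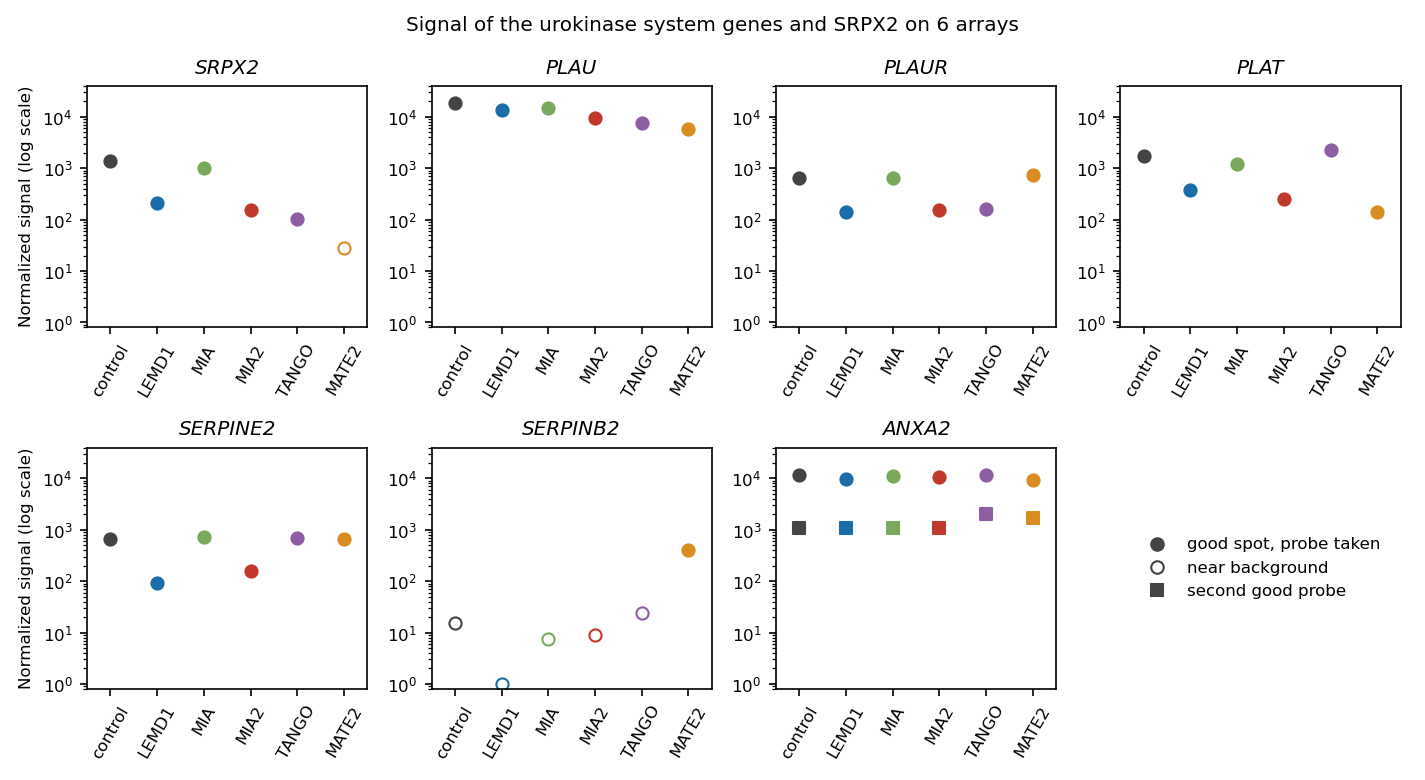
Normalized signal (y axis, log scale) of each gene on the 6 arrays (x axis, 1 array per condition, siRNA arrays by the name of the siRNA). Filled circles are good spots of the probe taken, open circles are spots near background (drawn at 1 where lower) and squares are the second good probe of ANXA2; SRPX2 stands at 1411 on control and at 213 or less on 4 siRNA arrays, and SERPINB2 has its only good spot, 411, on the MATE2 siRNA array.

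SRPX2, the PLAUR ligand, was the gene of the 7 that was low on the most arrays. Its signal was 1411 on control, 1016 on MIA siRNA, 213 on LEMD1 siRNA, 153 on MIA2 siRNA, 102 on TANGO siRNA and 28.3, near background, on MATE2 siRNA. The control and MIA siRNA arrays were high and the other 4 were low, with no value between 213 and 1016. The log2 ratios to control were -2.73 (LEMD1 siRNA), -3.20 (MIA2 siRNA) and -3.80 (TANGO siRNA), with robust SDs of 0.37, 0.54 and 0.58 for probes of like signal, and the last was -3.10 without background correction. On the MATE2 siRNA array SRPX2 was at least 44.9-fold lower, a bound of -5.49 on the log2 scale that was -3.96 without background correction, -4.11 with normexp correction and -4.17 with 50 added. Its log2 ratio on the MIA siRNA array was -0.47, beside a robust SD of 0.24. Among named genes with good spots on both arrays, ordered from the lowest ratio, SRPX2 held place 6 of 12451 on the MIA2 siRNA array and place 10 of 12525 on the TANGO siRNA array. In the order of levels the step from MIA siRNA to LEMD1 siRNA was 2.25 on the log2 scale, 6.40 times the robust SD between those arrays, and the step from MIA2 to TANGO siRNA, 0.59, lay within 1 robust SD. SRPX2 was thus low both on the LEMD1 and MIA2 siRNA arrays, where LEMD1 was near background, and on the TANGO and MATE2 siRNA arrays, where LEMD1 was above control.

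PLAUR, the urokinase receptor, had a signal of 647 on control and 645 on MIA siRNA, and 748 on MATE2 siRNA. It was 142 on LEMD1 siRNA, 152 on MIA2 siRNA and 159 on TANGO siRNA. The arrays formed 2 sets of 3, and within each set neighbouring levels differed by less than 1 robust SD. The step between the sets, from MIA siRNA to TANGO siRNA, was 2.02 on the log2 scale and 3.65 times the robust SD between those arrays. Against control PLAUR was 4.57-fold lower on LEMD1 siRNA, 4.26-fold on MIA2 siRNA and 4.08-fold on TANGO siRNA. On the MATE2 siRNA array its log2 ratio was 0.21, beside a robust SD of 0.53. The ligand SRPX2 and its receptor therefore were both low on 3 arrays, and on the MATE2 siRNA array, where SRPX2 was lowest, PLAUR was not called.

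PLAU, urokinase itself, had 1 probe with a good spot on each array. Its signal was 19038 on control, 15098 on MIA siRNA, 13507 on LEMD1 siRNA, 9710 on MIA2 siRNA, 7485 on TANGO siRNA and 5826 on MATE2 siRNA. The values fell step by step. The steps from MIA siRNA to LEMD1 siRNA, from MIA2 siRNA to TANGO siRNA and from TANGO siRNA to MATE2 siRNA each lay within 1 robust SD. Those from control to MIA siRNA and from LEMD1 siRNA to MIA2 siRNA were 1.40 and 1.44 times the robust SD between those arrays. PLAU was 3.27-fold lower than control on MATE2 siRNA, at a log2 ratio of -1.71 with a robust SD of 0.55, and 2.54-fold lower on TANGO siRNA. On the MIA2 siRNA array its log2 ratio of -0.97 stood just short of the limit for a call, and with those 2 arrays normalized alone it was -1.004 and called. On LEMD1 siRNA the log2 ratio was -0.50, beside a robust SD of 0.38. The protease gene was thus not called on the array on which its receptor PLAUR and the PLAUR ligand SRPX2 gave ratios of -2.19 and -2.73.

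PLAT, the other plasminogen activator, had a signal of 1770 on control and 2223 on TANGO siRNA, then 1221 on MIA siRNA. It was 376 on LEMD1 siRNA, 249 on MIA2 siRNA and 142 on MATE2 siRNA. The TANGO siRNA array, low for SRPX2 and PLAUR, was the highest for PLAT. The log2 ratios were -2.23, -2.83 and -3.64 on the LEMD1, MIA2 and MATE2 siRNA arrays, with robust SDs of 0.38, 0.54 and 0.53. On TANGO siRNA the log2 ratio was 0.33, within the robust SD of 0.49. Among named genes PLAT held place 11 of 12451 from the lowest on the MIA2 siRNA array and place 15 of 12558 on the MATE2 siRNA array. Its second probe was near background on the 6 arrays and gave no ratio.

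SERPINE2, the secreted inhibitor of both activators, had a signal of 659 on control, 711 on MIA siRNA, 703 on TANGO siRNA and 661 on MATE2 siRNA. It was 156 on MIA2 siRNA and 91.6 on LEMD1 siRNA. These 2 arrays lay apart from the other 4, whose neighbours differed by 0.09 or less on the log2 scale. SERPINE2 was 7.19-fold lower than control on LEMD1 siRNA and 4.22-fold lower on MIA2 siRNA, log2 ratios of -2.85 and -2.08, the first of which was -2.23 without background correction. Its log2 ratios on TANGO and MATE2 siRNA were 0.09 and 0.00, beside robust SDs of 0.54 and 0.53. SERPINE2 was low on the 2 arrays on which LEMD1 was near background. On these 2 arrays the summed signal of the squamous markers was 33478 and 33431, against 9205 to 11549 on the other 4. Most of it came from KRT5 (14791.7 and 12771.5) and KRT14 (14440.4 and 16779.6), the only squamous markers called higher on these 2 arrays. KRT5 was also called higher on TANGO and MATE2 siRNA, with DSP on the first and KRT17 on the second. KRT14 was 17.3-fold lower than control on TANGO siRNA. The part of these markers in the SERPINE2 result was not tested. The second probe of SERPINE2 was near background on the 6 arrays.

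SERPINB2, the inhibitor known mostly as an intracellular protein of keratinocytes and macrophages, was near background on 5 arrays. It had a good spot on MATE2 siRNA alone, with a signal of 411. On control its signal was 15.3, on MIA siRNA 7.53, on MIA2 siRNA 8.87 and on TANGO siRNA 23.6, and on LEMD1 siRNA it lay below its local background. Levels at this depth have no order. Against the lowest good signal on control it was at least 12.02-fold higher on the MATE2 siRNA array, a bound of 3.59 on the log2 scale that was 2.38 without background correction, 2.41 with normexp correction and 2.45 with 50 added. The MATE2 siRNA array was thus highest for this inhibitor and lowest for SRPX2, PLAT and PLAU.

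ANXA2, annexin A2, was not called on any array by the probe taken, whose signal was 9206 to 11539. Its log2 ratios were -0.31 to 0.01, each within the robust SD. A second probe of the same transcript was 1089 on control, 1081 on LEMD1 siRNA, 1082 on MIA siRNA and 1065 on MIA2 siRNA, but 2072 on TANGO siRNA and 1732 on MATE2 siRNA. By this probe the log2 ratios were 0.93 on TANGO siRNA and 0.67 on MATE2 siRNA, where the probe taken gave 0.01 and -0.31. ANXA2 has processed pseudogenes of near-identical sequence, and whether these enter either probe was not tested.

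**Figure D2:**
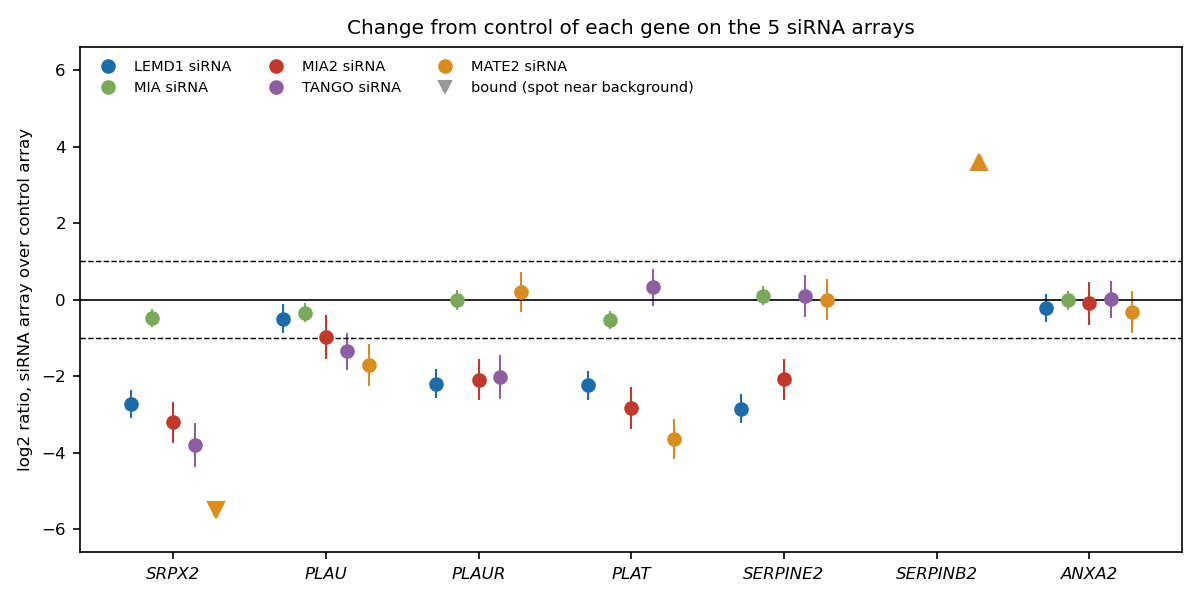
Log2 ratio of each siRNA array to the control array (y axis) for the 7 genes (x axis), by the probe taken. Bars are 1 robust SD of the log2 ratio over probes of like signal on the same arrays, not a replicate error, triangles are bounds and dashed lines mark 2-fold; MIA siRNA stays within 2-fold for each gene with a value, and the sets of arrays with a low value differ between genes.

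Set among all named genes, the lower calls of SRPX2, PLAT and SERPINE2 lay near the edge of the distribution, and those of PLAU lay further in. On the MATE2 siRNA array SRPX2 has a bound and no place. PLAT held place 28 of 12924 on LEMD1 siRNA. PLAU held place 561 of 12525 from the lowest on TANGO siRNA and 382 of 12558 on MATE2 siRNA. PLAUR held place 34 of 12924 on LEMD1 siRNA, 36 of 12451 on MIA2 siRNA and 167 of 12525 on TANGO siRNA. SERPINE2 held place 39 of 12451 on MIA2 siRNA. On LEMD1 siRNA it held place 8 and SRPX2 place 9 of 12924, and both are in the paper's list of genes most lowered there. With the MIA siRNA array in place of control, each of the 15 calls of the 7 genes was made in the same direction. Against the median over the 5 remaining arrays, which itself holds low arrays, 12 of the 15 were, and SRPX2 was at 0.48 on the LEMD1 siRNA array.

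**Figure D3:**
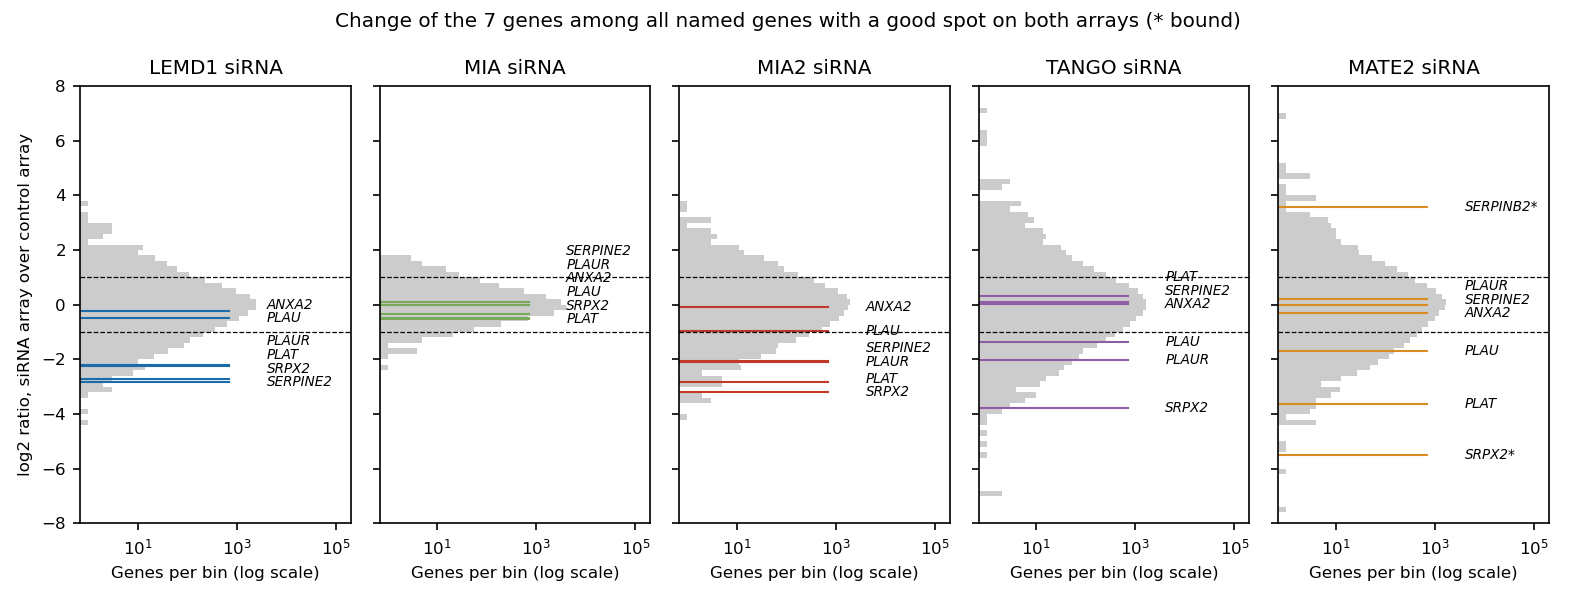
Number of named genes with good spots on both arrays (x axis, log scale) by log2 ratio to control (y axis, bins of 0.2), 1 panel for each siRNA array. Coloured lines mark the 7 genes, an asterisk marks a bound and dashed lines mark 2-fold; the lines of SRPX2 lie at -2.73, -3.20, -3.80 and, as a bound, -5.49, in the sparse lower part of the LEMD1, MIA2, TANGO and MATE2 siRNA panels.

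Of the other genes of plasminogen activation, none was called on LEMD1, MIA and TANGO siRNA. Of 16 genes listed, 11 or 12 had a value on each array, and at most 1 was lower and at most 1 was higher, on MIA2 siRNA 1 each beside 5.52% and 3.71% of all named genes, and on MATE2 siRNA 0 lower and 1 higher beside 12.6% and 6.63%. S100A10, the partner of ANXA2, was 569 on control and 1144 on MIA2 siRNA, a log2 ratio of 1.01, with 334 on TANGO siRNA and 369 on MATE2 siRNA. SERPINI1, neuroserpin, had a log2 ratio of -1.01 on MIA2 siRNA. KLKB1, plasma prekallikrein, was at least 2.69-fold higher on MATE2 siRNA. PLGRKT and ENO1, plasminogen receptors, and IGF2R and VLDLR, endocytic receptors, were not called on any array by the probe taken. A second good probe of IGF2R was lower on MATE2 siRNA, at -1.19, where the probe taken gave 0.55. The list median lay between -0.00 and 0.11, beside -0.04 to -0.01 for all named genes.

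Among 13 partners of PLAUR at the cell surface, 8 had a value on each array, and integrin genes were lower on 4 of the 5 siRNA arrays. ITGB2, the beta chain of leukocyte integrins, was 236 on control, 83.6 on LEMD1 siRNA, 95.04 on MIA2 siRNA, 50.4 on TANGO siRNA and 75.0 on MATE2 siRNA. It was lower on these 4 arrays, by 2.83-, 2.49-, 4.69- and 3.15-fold, and on MIA siRNA its log2 ratio was -0.46. ITGB1, the common beta chain, had log2 ratios of -1.02, -1.24 and -1.25 on MIA2, TANGO and MATE2 siRNA. ITGA3, a laminin receptor chain, had -1.12 on MIA2 siRNA and -1.71 on MATE2 siRNA, and ITGA5, the fibronectin receptor chain, -1.02 on MATE2 siRNA. EGFR was lower by the probe taken on TANGO siRNA, at -1.37, and on MATE2 siRNA, at -1.19, and of its other good probes 1 gave -0.17 and 0.04 there and 1 gave 0.06 and -1.01. ITGAV and ITGB3, which pair as the vitronectin receptor, and VTN, vitronectin itself, were not called. Counts of lower genes were 1, 0, 3, 3 and 5 of 8 on LEMD1, MIA, MIA2, TANGO and MATE2 siRNA, with no gene higher, beside 4.58%, 0.573%, 5.52%, 10.2% and 12.6% of all named genes called lower. The list medians were -0.56, -0.13, -0.85, -0.81 and -1.10, beside -0.04 to -0.01 for all named genes.

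Of 6 relatives, partners and regulators of SRPX2, 3 had good spots on both arrays in each comparison. CTSB, cathepsin B, was 1877 on control and 842 on MIA2 siRNA, a log2 ratio of -1.16, and 942 on LEMD1 siRNA, just inside 2-fold. Its other good probe gave -0.82 and -0.75 there and -1.53 on MATE2 siRNA, where the probe taken gave -0.61. MET, the receptor of HGF, and HGF were not called on any array, with log2 ratios of MET between -0.57 and 0.18. SRPX, the closest relative of SRPX2, and ADAMTS4 were near background on the 6 arrays.

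Of 9 substrates of the activators or of plasmin, LAMB3, an epithelial laminin chain, was lower on the 4 arrays on which SRPX2 was low, by the probe taken. Its log2 ratios were -1.29, -1.74, -2.25 and -1.32 on LEMD1, MIA2, TANGO and MATE2 siRNA, and 1.05, 0.70, 0.88 and 1.25 by its other good probe. FN1, fibronectin, was 373 on control, at least 11.9-fold lower on TANGO siRNA and 3.66-fold lower on MATE2 siRNA. PDGFC, a growth factor that PLAT can activate, was 127 on control, 481 on TANGO siRNA and near background on MATE2 siRNA. This is 3.79-fold higher on the first and at least 4.04-fold lower on the second. TGFB1 was at least 2.80-fold lower on TANGO siRNA and 2.13-fold lower on MATE2 siRNA, and LTBP1, which holds latent TGF-beta in the matrix, was at least 2.43-fold and at least 3.57-fold higher there. Counts of lower genes were 1 of 6, 0 of 6, 1 of 6, 3 of 7 and 4 of 7 on LEMD1, MIA, MIA2, TANGO and MATE2 siRNA, beside 4.58%, 0.573%, 5.52%, 10.2% and 12.6% of all named genes. On TANGO siRNA 2 were higher and on MATE2 siRNA 1, beside 6.46% and 6.63%.

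**Figure D4:**
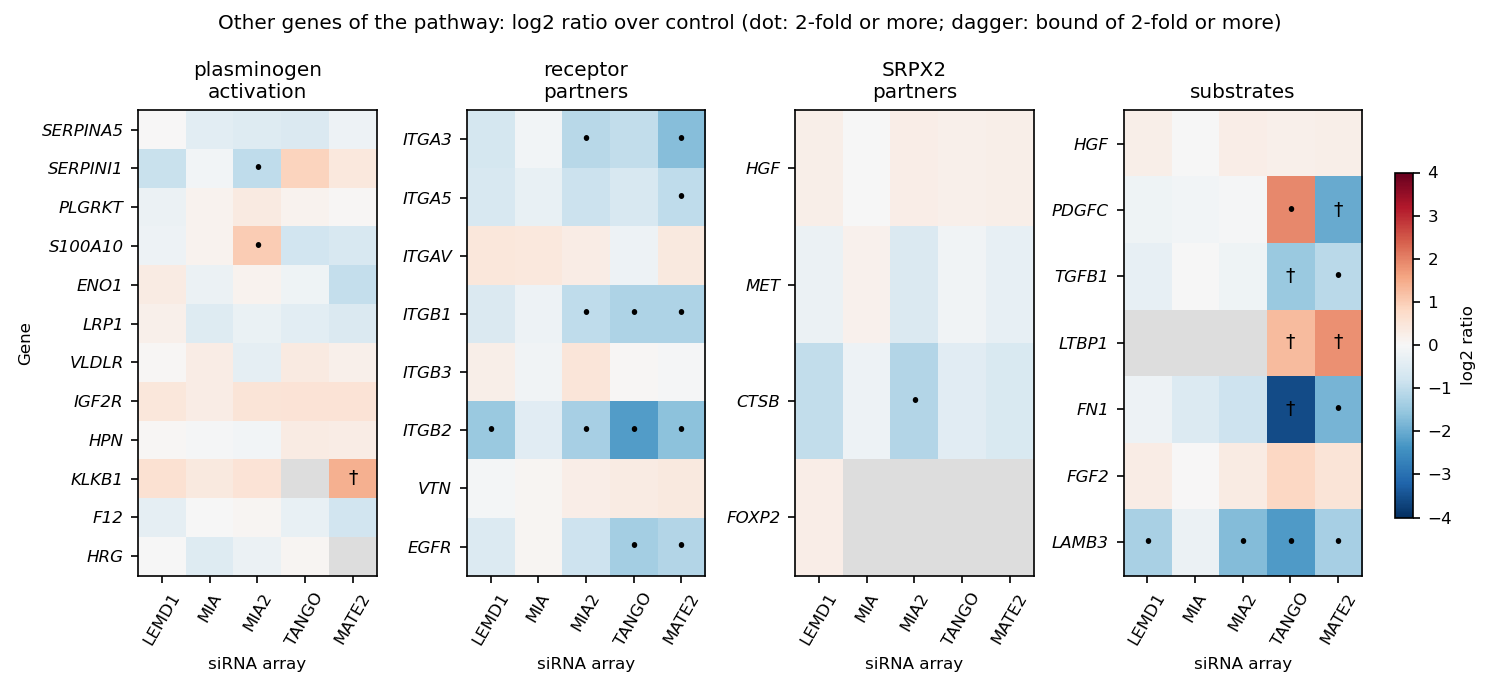
Log2 ratio to control (colour) of the other genes with a value (rows) on the 5 siRNA arrays (columns), in 4 lists. Dots mark ratios of at least 2-fold, daggers mark bounds of at least 2-fold and grey cells have no value; ITGB2 and LAMB3 are marked on each array except MIA siRNA.

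The genes whose changes lay closest to each of the 7 genes were found by the root mean square difference in log2 ratio over the siRNA arrays, among named genes with good spots on the 6 arrays and a 2-fold change on at least 1. For PLAUR these were PSMC3, a proteasome subunit, at 0.20, PIM1, a kinase, at 0.39, and FOSL1, a subunit of AP-1, at 0.42, of 3500 genes. PSMC3 had ratios of -2.22, -1.91 and -1.64 on LEMD1, MIA2 and TANGO siRNA, and 0.13 on MATE2 siRNA. For SERPINE2 they were ALDH1A3, a retinaldehyde dehydrogenase, at 0.39, STEAP1 at 0.50 and SERPINB1 at 0.51. For PLAU they were PKN2, JOSD1 and NUP50, at 0.08 to 0.09, in a dense part of the distribution. For PLAT the nearest, SEC14L2, SLC4A11 and SULF2, were no closer than 0.86, and each had a negative ratio on TANGO siRNA, where PLAT had 0.33. For ANXA2, which was not called by the probe taken, the nearest were RSPH3, RAB22A and USP28, at 0.34 to 0.35.
SRPX2 has no good spot on MATE2 siRNA, and over the other 4 siRNA arrays, a choice made after its values were seen, its nearest of 2533 genes were BIRC3 at 0.37, ADAM8 at 0.46 and ETS1 at 0.50. BIRC3, an inhibitor of apoptosis, had log2 ratios of -3.15, -3.48 and -3.26 on LEMD1, MIA2 and TANGO siRNA. ADAM8, a surface metalloprotease, had -1.90, -2.84 and -3.59, and the transcription factor gene ETS1 had -2.43, -2.51 and -3.28. Likeness over 4 or 5 ratios that share a control array is a description of these arrays.

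**Figure D5:**
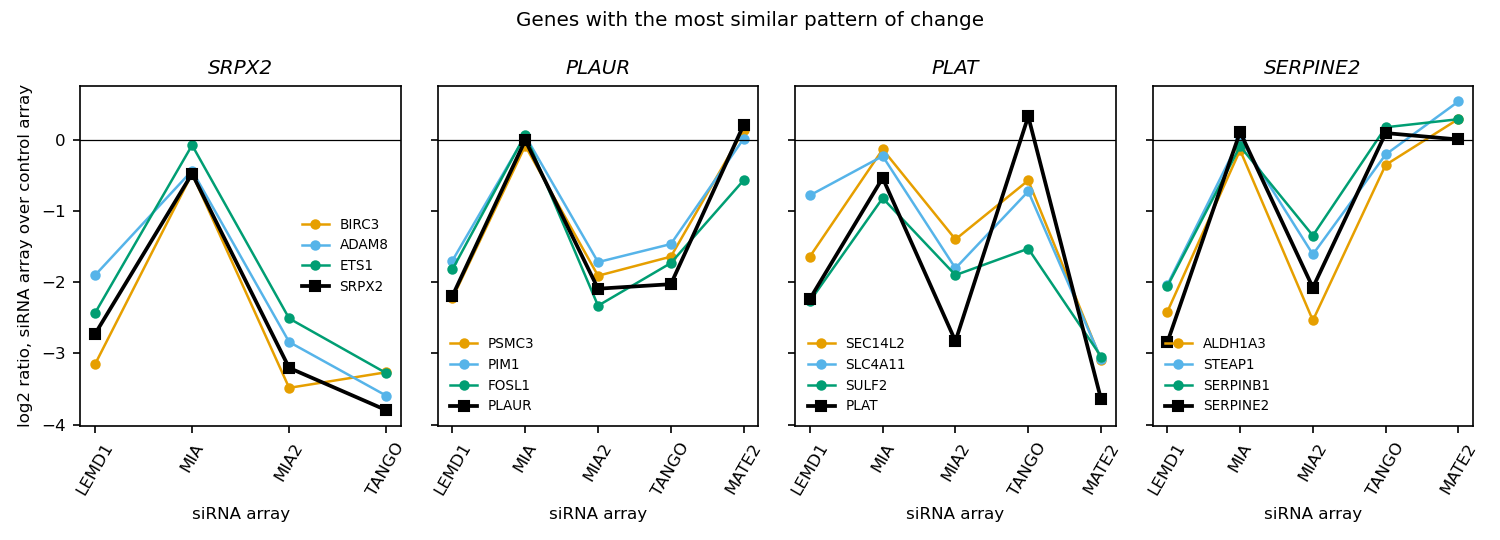
Log2 ratio to control (y axis) on the siRNA arrays (x axis) for SRPX2, PLAUR, PLAT and SERPINE2 (black squares) and the 3 genes nearest to each in pattern (coloured circles). SRPX2 is shown on the 4 siRNA arrays on which its spot was good; lines join the values of a gene and no order of arrays is meant, and PLAT stands at 0.33 on TANGO siRNA where its 3 nearest genes are at -0.57 to -1.53.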

How the data were processed

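RNA from HSC3 cells was measured on 6 one-colour arrays, 1 for each condition. The authors scanned and extracted them with CodeLink Expression Analysis, version 5.0.0.31312 in the file headers, and deposited spot intensity values per array, in which the raw intensity is the spot mean minus local background. The deposited normalized intensity table was used as an alternative. Here raw intensity of 53103 gene probes, without 320 masked on any array, was quantile normalized over the 6 arrays and taken to log2, with values under 1 set to 1 (Python 3.11.15, numpy 2.4.6, pandas 2.3.3, R 4.3.3, limma 3.58.1). Spots flagged near background gave bounds. Probes were named by the platform annotation and RefSeq: 23960 had 1 gene, 898 several and 28245 none. For each gene the probe with the highest mean log2 signal, among probes good on at least 1 array, was taken. Named genes were the 7 genes, the other listed genes called on an array, and the 3 nearest in pattern. Some listed genes are not reported here. The genes and lists were chosen with earlier results of these data known. Scripts were tested on simulated data. Alternatives covered background correction, scaling, the arrays normalized, offset, flags, probe, value table and comparator.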

Additional observations from a re-analysis of the deposited data

How the results depend on the processing

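No paired analysis was possible because each condition had 1 array. Of the 15 calls of the 7 genes, each was made under every alternative that gave a value, except against the median over the 5 remaining arrays, where 12 were. That comparator holds the low arrays themselves. With it SRPX2 was at 0.48 on LEMD1 siRNA, 2.73 on MIA siRNA, -0.48 on MIA2 siRNA, -1.07 on TANGO siRNA and, as a bound, -2.76 on MATE2 siRNA, and PLAU on TANGO siRNA was at -0.85. With it 3 genes were higher on MIA siRNA (SRPX2, PLAUR and PLAT), 1 on TANGO siRNA (PLAT) and 2 on MATE2 siRNA (PLAUR and SERPINB2). With the MIA siRNA array as comparator SRPX2 was at -2.25 on LEMD1 siRNA. Without background correction SRPX2 was at -3.10 on TANGO siRNA, and its bound on MATE2 siRNA was -3.96, against -4.11 with normexp correction and -4.17 with 50 added. Without a filter on flags 1 gene, SERPINB2, was lower on MIA siRNA and was the fifth gene called lower on LEMD1 siRNA, and with good spots on all 6 arrays required 0 genes were higher on MATE2 siRNA and SRPX2 and SERPINB2 had no value. Counts over all named genes moved more: lower calls on LEMD1 siRNA were 652, and 268 to 304 with normexp correction, no correction or 50 added, and on MIA siRNA 79, and 4 to 12. With scaling to the median in place of quantiles, the median of all genes on TANGO siRNA was -0.12 and MIA2 siRNA had 663 lower and 697 higher genes, against 762 and 512. Values near background and the single array per condition limit the precision.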
